A study of Mus musculus with 18 samples.

Results

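The genes described here code for the extracellular matrix and for the enzymes, inhibitors and cell surface proteins that act on it, and all of them were low in pluripotent cells relative to mouse embryonic fibroblasts (MEFs). They were taken from the authors' list of 471 probe sets whose level was at least 10-fold below the MEF mean in each of the 15 other arrays. A probe set is a group of probes that reads 1 transcript. Gene symbols that start with the names of matrix families picked 64 of these probe sets, which read 41 genes, out of 45037 probe sets on the array. The families were collagens other than types I, III and V, small leucine-rich proteoglycans, laminins, fibrillins, fibulins, matricellular proteins, metalloproteinases, cathepsins, their inhibitors, integrins, glypicans and hyaluronan synthases. A difference from MEFs was therefore what chose them, and it is given below as a description without a test. The rule used the pluripotent arrays too, since a gene above the limit in even 1 clone was left out. Differences among pluripotent groups are thus given only for genes that stayed under the limit in every clone. How far this narrowed them was not tested. Just inside the limit lay Fbn1 (1438870_at), with a smallest fold of 10.04, Tnc with 10.05 and 1 probe set of Timp2 with 10.07. The nearest probe set outside it had a fold of 9.997 and carried no symbol in the files. A further 14 probe sets met the 10-fold limit but were not in the list.

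Affymetrix mouse arrays measured the RNA of 18 samples, 1 array for each. The strain label of all samples, mESCs included, names the allele Gt (ROSA) 26Sortm1 (rtTA*M2) Jae/J on B6.Cg, a doxycycline-dependent activator at the Rosa26 locus. It also names B6.129S4-POU5f1tm2Jae/J, a GFP reporter at the Oct4 locus. The 3 MEF samples came from E13.5 embryos, the 3 mESC samples were clones of embryonic stem cells, and each of the groups of induced pluripotent stem cells (iPSCs), OSKM, OE + EpEX and KE + EpEX, was represented by 4 clones. The OE + EpEX clones came from MEFs given Oct4 and EpCAM and treated with EpEX, the extracellular domain of EpCAM. KE + EpEX clones came from MEFs given Klf4 and EpCAM with the same treatment, and OSKM clones from MEFs given Oct4, Sox2, Klf4 and c-Myc without it. The genes were carried by PiggyBac transposons and induced with doxycycline at 1.5 µg/ml for 21 days. The iPSCs were derived on feeder cells, which per the study's methods are mitotically inactivated MEFs. The MEF samples are biological replicates by their labels and a single primary culture by the design text. Within each iPSC group the samples are clones of 1 reprogramming scheme, so the p-values below measure spread among clones only. In the limma fit this spread was 1 estimate for each probe set, shared by all 15 pluripotent arrays, mESCs included. The groups were unequal in it, with a median SD of the matrix probe sets of 0.70 in KE + EpEX, 0.34 in OE + EpEX and 0.15 in OSKM and mESCs. A p-value thus also depends on groups outside its comparison.

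Fibroblasts build the matrix of connective tissue. They secrete collagens, proteoglycans and elastic fibre proteins, crosslink them outside the cell, and remodel them with metalloproteinases whose activity is held back by TIMP proteins. Mouse pluripotent cells grow as compact epithelial-like colonies. When fibroblasts are reprogrammed, they pass through a mesenchymal-to-epithelial transition in which much of the fibroblast matrix programme is switched off.

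Marker genes were looked up by symbol in the authors' lists of lower and higher probe sets alone, so only listed genes could be found. Of 12 pluripotency genes 11 were found. All of their 12 probe sets, among them those of Nanog, Sox2 and Zfp42, were in the list at least 10-fold higher than in MEFs. Of 17 fibroblast genes 9 were found. Their 12 probe sets, such as those of Col1a1, Col3a1, Pdgfra and Prrx1, were in the lower list. Utf1 and the fibroblast genes Thy1, Col1a2, Col5a1, Vim, S100a4, Fap, Acta2 and Tagln were found in neither list, and their levels were not read. None of the 12 endoderm markers was named in either list. Levels are on a log2 scale on which the authors set every probe set to a median of 0 over the 18 arrays, so a level of 0 is typical of the pluripotent arrays and levels of different genes cannot be compared. RNA came from whole cultures, in which fewer cells of a type and less RNA per cell cannot be told apart. The MEF 1 array stood apart from the other MEF arrays for the matrix genes. It was below the mean of MEF 2 and MEF 3 in 57 of the 64 probe sets, by a median of -1.32 on the log2 scale, where the median over all probe sets was 0.05. MEF 2 and MEF 3 differed by no more than 0.49 in these 64 probe sets. The comparisons among pluripotent groups were fitted without the MEF arrays.

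The MEF mean was 42.1-fold above the mean of the 15 pluripotent arrays in the median matrix probe set, with a range from 13.1-fold to 216-fold. Without MEF 1 the median was 55.5-fold and the range 12.3-fold to 480-fold, and 23 probe sets had a fold over 1.5 times higher and 1 over 1.5 times lower. The median over the lower list was 29.9-fold, without the 9 of its 471 probe sets that had no symbol. By role, the small leucine-rich proteoglycans had a median of 64.4-fold over 11 probe sets, the collagens 47.7-fold over 5, the protease inhibitors 42.4-fold over 11 and the proteases 34.4-fold over 11. Elastic fibre genes had 32.3-fold over 9 probe sets, receptors and cell surface genes 25.7-fold over 5, and glycoproteins and matricellular genes 24.1-fold over 10. Lama4, a laminin chain of basement membranes, had 21.3-fold and Has2, a hyaluronan synthase, 13.1-fold, each from 1 probe set. Without MEF 1 the role medians over 1.5 times higher were 106-fold for small leucine-rich proteoglycans, 72.1-fold for protease inhibitors, 69.5-fold for proteases, 51.7-fold for elastic fibre genes and 51.9-fold for Lama4. As a share of the MEF signal, the median matrix probe set stood at 1.77% to 2.03% in the mESC arrays, 2.17% to 2.35% in the OSKM arrays and 2.74% to 3.91% in the OE + EpEX arrays. The KE + EpEX clones spread most, from 5.46% in clone 1 and 3.53% in clone 2 to 1.74% in clone 3 and 2.01% in clone 4.

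**Figure D1:**
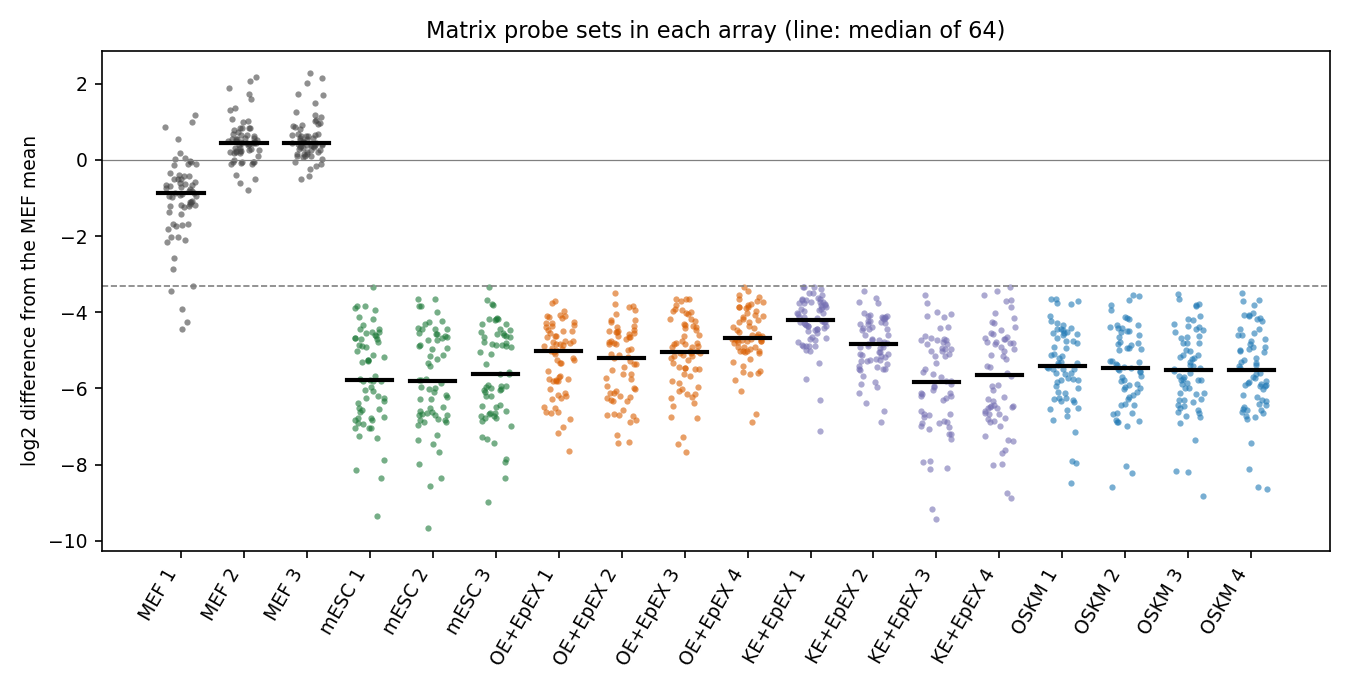
Log2 difference from the mean of the 3 MEF arrays for each of the 64 matrix probe sets (points) in each of the 18 arrays, with the median as a black line and the 10-fold limit of the rule dashed. Medians ran from -5.84 in KE + EpEX clone 3 to -4.20 in KE + EpEX clone 1, and MEF 1 lay at -0.88 against 0.46 and 0.43 in the other MEF arrays.

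The pluripotent groups were compared with each other in 6 comparisons, over all 64 matrix probe sets. A call required a 2-fold difference, 1 on the log2 scale, together with a limma adjusted p under 0.05. For OE + EpEX against mESCs 5 of 64 were called, all higher, where 2.06% of all probe sets were called higher and 3.43% in either direction. The median difference of matrix probe sets was 0.44, against -0.05 over all probe sets, and 52 of the 64 were above 0. All 4 OE + EpEX clones exceeded all mESC arrays in 39.1% of the matrix probe sets and in 10.1% of all probe sets. After quantile normalization of the centred levels, which gives every array the same spread of these levels, 2 were called. For KE + EpEX against mESCs 2 were called, both higher, with 1.97% of all probe sets called higher and 3.89% in either direction, a median of 0.34 and 58 above 0. Without KE + EpEX clone 1 there was 1 call and the median was 0.08, whereas there were 8 calls without clone 3 and 12 without clone 4. After quantile normalization there were 0. All KE + EpEX clones exceeded all mESC arrays in 12.5% of the matrix probe sets and in 9.22% of all. For OSKM against mESCs 2 were called higher and 1 lower, with 1.82% of all probe sets called higher, 1.9% lower and 3.73% in either direction, a median of 0.15 and 44 above 0. Without mESC 1, mESC 3 or OSKM clone 4 it was 1 call. After quantile normalization this last comparison gave 0 higher and 2 lower. All OSKM clones exceeded all mESC arrays in 37.5% of the matrix probe sets and in 14.0% of all.

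Between iPSC groups few calls were made over all probe sets. In OE + EpEX against OSKM 1 matrix probe set was called, that of Serpinf1, higher, with 0.0311% of all probe sets called higher and 0.0977% in either direction. The matrix median was 0.26, against -0.02 over all probe sets, and 31.2% of matrix probe sets had all OE + EpEX clones above all OSKM clones, against 6.71% of all probe sets. In KE + EpEX against OSKM 0 were called by limma, with 0.00222% of all probe sets called. At an unadjusted limma p under 0.05 there were 10, or 15.6%, against 12.0% of all probe sets. With the methods' t-test there was 1 before adjustment, or 1.56%, against 11.1% of all probe sets, and 0 after it. Without KE + EpEX clone 3, 3 were called. In OE + EpEX against KE + EpEX 0 were called by limma, with 0% of all probe sets called. There were 6 at an unadjusted limma p under 0.05, or 9.38%, close to the 8.27% of all probe sets. The methods' t-test gave 3 before adjustment, or 4.69% against 6.04% of all probe sets, and 0 after it. The smallest p was that of Fmod (1415939_at), at -0.33 ± 0.09 (limma adjusted p = 0.441). Its levels were -0.41, -0.12, -0.26 and -0.35 in OE + EpEX clones and -0.01, -0.01, 0.19 and 0.01 in KE + EpEX clones, without overlap.

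Sequences upstream of the start site are shown for 4 genes on which the results turn. Ogn and Mmp3 both had large differences from MEFs, but Ogn and not Mmp3 was high in several iPSC clones, Col6a3 was called against mESCs in all of the iPSC groups, and Vcan was the 1 gene called lower. The sequences are the 250 bases before the RefSeq start on build GRCm38.p6, written 5′ to 3′ on the strand of the gene. Capitals mark matches, on either strand, to TATAAA (the TATA box), TGANTCA (AP-1), GGAATG (TEAD) or GGGCGG (Sp1). In the Ogn sequence the capitals near its 5′ end hold TATAAA on both strands, overlapping.
Ogn, chr13:49607765-49608014, plus strand: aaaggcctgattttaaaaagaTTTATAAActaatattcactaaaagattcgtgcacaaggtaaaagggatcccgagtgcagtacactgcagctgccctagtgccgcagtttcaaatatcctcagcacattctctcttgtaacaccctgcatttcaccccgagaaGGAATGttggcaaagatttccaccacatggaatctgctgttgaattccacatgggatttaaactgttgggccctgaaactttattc
Mmp3, chr9:7445572-7445821, plus strand: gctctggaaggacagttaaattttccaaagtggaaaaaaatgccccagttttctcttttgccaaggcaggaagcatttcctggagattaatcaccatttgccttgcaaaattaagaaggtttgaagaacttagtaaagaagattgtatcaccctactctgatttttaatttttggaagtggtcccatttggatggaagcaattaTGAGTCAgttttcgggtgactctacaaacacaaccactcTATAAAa
Vcan, chr13:89742513-89742762, minus strand: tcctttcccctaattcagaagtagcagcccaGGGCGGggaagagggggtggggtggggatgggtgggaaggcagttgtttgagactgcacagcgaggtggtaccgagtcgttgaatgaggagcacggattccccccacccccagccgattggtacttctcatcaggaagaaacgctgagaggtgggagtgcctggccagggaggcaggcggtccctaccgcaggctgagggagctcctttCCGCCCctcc
Col6a3, chr1:90843972-90844221, minus strand: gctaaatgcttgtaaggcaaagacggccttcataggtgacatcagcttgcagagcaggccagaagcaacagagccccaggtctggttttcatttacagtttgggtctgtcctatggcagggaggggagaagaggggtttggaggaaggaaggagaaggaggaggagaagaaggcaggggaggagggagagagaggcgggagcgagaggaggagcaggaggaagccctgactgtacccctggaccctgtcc

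Of the 41 matrix genes, 29 had an entry in the RefSeq promoter table, with 35 start sites. TATAAA was found in 20.0% of these 35 sequences and in 12.4% of the 32851 sequences of the same length in the whole table. GGGCGG was found in 54.3% against 32.7%, TGANTCA in 8.57% against 6.75%, and GGAATG in 11.4% against 12.6%. The observed over expected CpG ratio had a median of 0.423 for the matrix genes and 0.374 for all entries, and it was under 0.6 in 65.7% and 66.0% of them. In these letters the matrix promoters thus stood close to the table as a whole for CpG content, AP-1 and TEAD. The shares for TATAAA and GGGCGG were higher than in the table, as a description of 35 sequences. The genes without an entry were Col12a1, Cyr61, Dcn, Fbn2, Gpc6, Has2, Lama4, Loxl1, Lum, Mgp, Mmp16 and Mmp2.

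Small leucine-rich proteoglycans bind collagen fibrils and control their width and spacing. The 11 probe sets of this role read Ogn, Fmod, Aspn, Bgn, Dcn and Lum. Ogn, which codes for osteoglycin, had the largest difference from the mean of the 3 MEF arrays of all matrix probe sets, 216-fold. Without MEF 1 it was 323-fold, and Mmp3 was then larger at 480-fold. Its level (1419663_at) was 6.81, 8.50 and 8.60 in the MEF arrays and -1.38, -1.71 and -1.01 in the mESC arrays. OSKM clones had -0.53, -0.61, -0.85 and -0.66, and OE + EpEX clones 0.79, 0.53, 0.68 and 2.96. KE + EpEX clones had 3.93, 3.06, -1.20 and -0.77. OE + EpEX clones thus lay above every mESC and OSKM array, while KE + EpEX clones 1 and 2 lay above both groups and clones 3 and 4 within their range. In KE + EpEX clone 1 the Ogn signal was still 6.07% of the MEF mean, against 0.22% to 0.28% in OSKM clones. No probe set of Ogn was called in any comparison among pluripotent groups.

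Fmod, which codes for fibromodulin, behaved differently. Its probe set with the largest difference from MEFs (1456084_x_at, 98.0-fold) had levels of 0.31, 0.25, -0.13 and -0.25 in KE + EpEX clones, -0.01, -0.11, -0.13 and -0.04 in OE + EpEX clones and 0.09, -0.03, 0.31 and 0.01 in OSKM clones. The 15 pluripotent arrays lay between -0.25 and 0.31 and the groups overlapped. Aspn, asporin (1448421_s_at, 91.1-fold), had 0.83 and 0.76 in KE + EpEX clones 1 and 2 and 0.99 in OE + EpEX clone 4, where the other 12 pluripotent arrays lay between -0.34 and 0.22. Over the 6 comparisons among pluripotent groups, 0 of the 66 limma tests of this role gave a call. An unadjusted p under 0.05 was found in 13 of them, or 19.7%, where it was 19.9% over all probe sets in these 6 comparisons.

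The collagens of this set were the chains of collagen VI, a microfibril-forming collagen around cells, and Col12a1, a collagen on the surface of fibrils. Col6a1 (1448590_at, 92.4-fold) had levels of 5.81, 6.97 and 7.25 in MEFs and -0.23, -0.29 and 0.03 in mESCs. Its levels in OE + EpEX clones were 0.19, -0.03, 1.22 and 2.02, in KE + EpEX clones 2.03, 0.71, -0.53 and -0.71, and in OSKM clones -0.46, -0.32, -0.69 and -0.75. OE + EpEX clones lay above every OSKM clone for this gene, but the difference was not called. Col6a2 (1452250_a_at) was 47.7-fold and Col12a1 50.3-fold below MEFs, and both were highest in KE + EpEX clone 1, at 1.37 and 1.97.

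Col6a3, the third chain of collagen VI, was the collagen that did pass the test. Its level (1424131_at, 43.5-fold below MEFs) was 4.01, 5.77 and 5.84 in MEFs and -1.57, -1.69 and -0.99 in mESCs. OE + EpEX clones had 0.44, 0.22, 0.30 and 0.80, KE + EpEX clones 0.32, -0.04, -0.43 and -0.23, and OSKM clones 0.04, -0.07, -0.27 and -0.41. Every iPSC clone lay above every mESC array. The log2 difference from mESCs was 1.86 ± 0.20 (SE) for OE + EpEX (limma adjusted p = 1.64e-05), with 1.32 ± 0.20 in the KE + EpEX group (limma adjusted p = 0.000289) and 1.24 ± 0.20 in OSKM (limma adjusted p = 0.000474). These comparisons share the mESC arrays. After quantile normalization the OE + EpEX call remained, at 1.24, and those of KE + EpEX and OSKM fell short of 2-fold, at 0.72 and 0.61. Among the iPSC groups the differences of Col6a3 ran from 0.08 to 0.62 and none was called. Over the 6 comparisons limma called 3 of the 30 tests of the collagens, all of Col6a3. An unadjusted p under 0.05 was found in 8, or 26.7%, against 19.9% over all probe sets.

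Elastic fibre genes code for fibrillins, which form microfibrils, and for the proteins that place and crosslink elastin on them. Efemp2 (fibulin-4, 65.7-fold), Fbn1 (fibrillin-1, 1460208_at, 57.3-fold) and Loxl1 (a lysyl oxidase, 43.2-fold) had the largest differences from the mean of the 3 MEF arrays. Without MEF 1 the largest was that of Fbln7, a fibulin, at 126-fold, with Efemp2 at 96.8-fold. For Fbn1 the levels were 2.06, 0.78, -1.03 and -1.88 in KE + EpEX clones, 0.07, -0.30, 0.60 and 1.08 in OE + EpEX clones, 0.22, -0.16, -0.09 and -0.07 in OSKM clones and -0.22, -0.88 and -0.62 in mESCs. KE + EpEX clones 1 and 4 thus held the highest and the lowest value of all 15 pluripotent arrays. Fbn2 (1422831_at) had the smallest p of this role, at -0.54 ± 0.18 for OSKM against mESCs (limma adjusted p = 0.0554). Its probe sets are labelled with a second locus as well, so signals of the pair may be mixed. Limma called 0 of the 54 tests of this role, and 4, or 7.41%, had an unadjusted p under 0.05, against 19.9% over all probe sets.

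Matricellular proteins and glycoproteins sit in the matrix and bind integrins, growth factors or mineral. Over the 6 comparisons limma called 4 of the 60 tests of this role. An unadjusted p under 0.05 was found in 21, or 35.0%, against 19.9% over all probe sets. Postn, periostin, was 103-fold below MEFs, with levels (1423606_at) of 5.12, 6.55 and 6.61 in MEFs and -2.04, -2.47 and -1.84 in mESCs. OSKM clones had 0.26, 0.19, -0.02 and -0.13, OE + EpEX clones -0.91, -0.74, 0.02 and 0.50, and KE + EpEX clones 1.55, 0.61, -0.97 and -2.77. OSKM and OE + EpEX clones all lay above mESCs, and KE + EpEX clone 4 lay below them. OSKM iPSCs exceeded mESCs by 2.19 ± 0.69 (limma adjusted p = 0.0410). Similar differences from mESCs, 1.83 for OE + EpEX and 1.72 for KE + EpEX, were not called. The OSKM call was lost when any 1 of its 7 arrays was left out, with the difference then between 2.02 and 2.33, and after quantile normalization, at 1.25. It was kept in 8 other alternatives. The SE came from all pluripotent groups together, among which the KE + EpEX clones spread most for this gene.

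Vcan codes for versican, a large proteoglycan that binds hyaluronan, and it moved in the other direction. Its level (1427256_at, 37.3-fold below MEFs) was 3.21, 5.65 and 5.85 in MEFs and 0.46, 0.03 and 0.72 in mESCs. OSKM clones had -1.40, -1.33, -1.55 and -1.66, OE + EpEX clones -0.14, -0.73, -0.16 and 0.52, and KE + EpEX clones 0.95, -0.03, -1.76 and 1.36. OSKM clones were below every mESC and OE + EpEX array, and KE + EpEX clone 3 was lower still. OSKM fell by 1.89 from the mESC level, with an SE of 0.52 (limma adjusted p = 0.0196). The other probe sets of Vcan had differences of -0.80 and -0.77, short of the 2-fold limit. The call was lost without mESC 1, mESC 3 or OSKM clone 4, where the difference ran from -1.86 to -1.73. It was kept in 14 alternatives.

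Cyr61, a CCN-family integrin ligand, was read by a pair of probe sets that were 23.5-fold and 24.7-fold below MEFs. The first (1442340_x_at) had 0.25, -0.02, 0.65 and 0.49 in OE + EpEX clones, 0.09, 0.06, -0.37 and -0.28 in KE + EpEX clones, 0.02, -0.05, -0.85 and -0.40 in OSKM clones and -0.90, -0.88 and -0.74 in mESCs. OE + EpEX and KE + EpEX clones did not overlap mESCs, and 1 OSKM clone did. OE + EpEX exceeded mESCs by 1.18 ± 0.20 and, on the second probe set (1457823_at), by 1.17 ± 0.30 (limma adjusted p = 0.000881 and 0.0166). The second call was lost without mESC 2 and without OE + EpEX clone 4, at 0.88 and 0.98. Both were lost after quantile normalization, at 0.90 and 0.91. Tnc, tenascin-C, was not called for OSKM against mESCs, with a difference of 1.40 ± 0.47 (limma adjusted p = 0.0532). In 5 alternatives it was called and in 13 it was not. Its OSKM levels were 0.36, 0.07, 0.24 and 0.01 and its mESC levels -1.26, -1.41 and -1.02, whereas KE + EpEX clones spread from 0.69 to -2.43. Mgp, matrix Gla protein, an inhibitor of calcification, was 102-fold below MEFs and spread from 1.34 in KE + EpEX clone 1 to -3.07 in KE + EpEX clone 3.

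**Figure D2:**
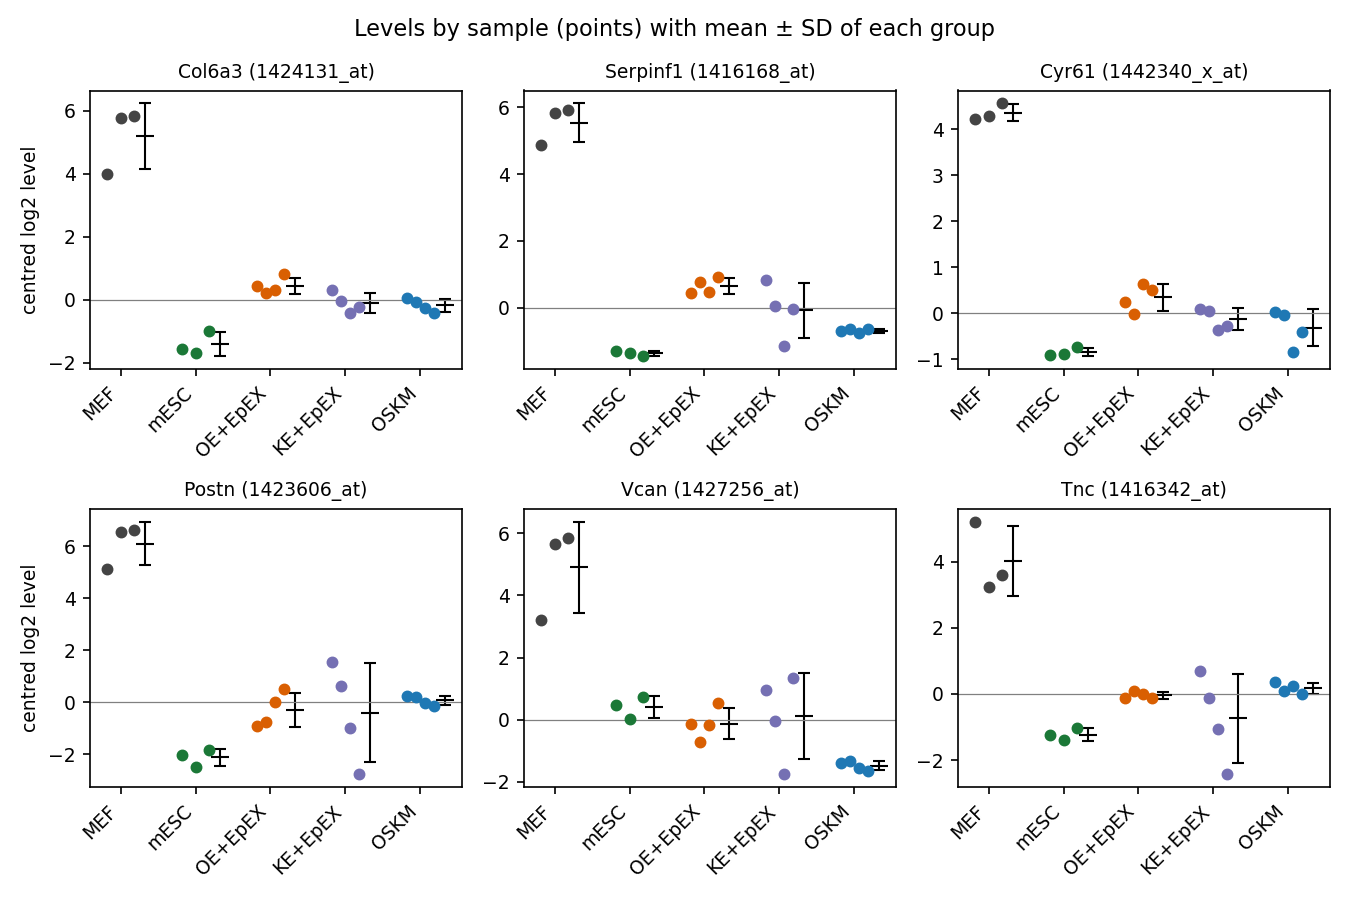
Centred log2 levels of 6 matrix genes in each sample (points), with the mean and SD of each group beside them (3 MEF, 3 mESC and 4 clones of each iPSC group). All iPSC clones lay above mESCs for Col6a3, the OSKM clones were lowest among group means for Vcan at -1.33 to -1.66, and among pluripotent groups the KE + EpEX clones spread most for Postn, Vcan and Tnc.

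The role of matrix proteases held 11 probe sets of 9 genes. Adamtsl3 is in it by its family name, since ADAMTS-like proteins lack the protease domain. Limma called 0 of the 66 tests of this role, and 5, or 7.58%, had an unadjusted p under 0.05, against 19.9% over all probe sets. Adamts1, which cleaves versican and aggrecan, was 167-fold below MEFs. Its levels were 1.03, 0.45, 0.19 and 1.88 in OE + EpEX clones, 2.79, 1.07, -0.43 and -0.33 in KE + EpEX clones, -0.24, -0.56, -0.50 and -0.45 in OSKM clones and -0.21, -0.32 and -0.19 in mESCs. OE + EpEX clones lay above all mESC and OSKM arrays, without a call. Mmp2, a gelatinase (1416136_at, 68.7-fold), had 1.51 in KE + EpEX clone 1, 1.17 in OE + EpEX clone 4 and -1.13 in KE + EpEX clone 3. Mmp3, stromelysin-1 (103-fold), was 480-fold below the mean of MEF 2 and MEF 3 and 4.76-fold below MEF 1. It stayed within -0.40 to 0.21 in 14 of the pluripotent arrays and reached 1.09 in OE + EpEX clone 3.

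Among protease inhibitors, 2 of 11 probe sets were called against mESCs, both of Serpinf1. Both were called higher in OE + EpEX, where 2.06% of all probe sets were called higher. Over the 6 comparisons limma called 4 of the 66 tests of this role, all of Serpinf1. An unadjusted p under 0.05 was found in 19, or 28.8%, against 19.9% over all probe sets. The other genes of this role, Timp2, Timp3 and Serpina3n, had no call in any comparison among pluripotent groups. Serpinf1 is in the role by its family name. Its calls are thus not evidence of a change in protease inhibition, which was not tested. This gene codes for pigment epithelium-derived factor, a secreted serpin. Its level (1416168_at, 57.4-fold below MEFs) was 4.86, 5.84 and 5.91 in MEFs and -1.30, -1.36 and -1.45 in mESCs. OE + EpEX clones had 0.44, 0.77, 0.47 and 0.92, KE + EpEX clones 0.83, 0.05, -1.16 and -0.05, and OSKM clones -0.71, -0.64, -0.77 and -0.64. Groups did not overlap between OE + EpEX, OSKM and mESCs, in that order from high to low. OE + EpEX exceeded mESCs by 2.02 ± 0.30 and OSKM by 1.34 ± 0.28 (limma adjusted p = 0.000306 and 0.0325), and KE + EpEX exceeded mESCs by 1.29 ± 0.30 (limma adjusted p = 0.00720), a call lost without KE + EpEX clone 1 at 0.98 and after quantile normalization at 0.70. The other probe set (1453724_a_at) gave 1.33 ± 0.20 for OE + EpEX against mESCs (limma adjusted p = 0.000413), and 0.96, short of 2-fold, after quantile normalization. It gave 0.83 for OE + EpEX against OSKM, below the 2-fold limit, at a limma adjusted p of 0.0486. The call of OE + EpEX over OSKM was lost when any 1 of 7 of the 8 arrays was left out, the exception being OE + EpEX clone 3, with the difference between 1.25 and 1.41 throughout.

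TIMP proteins inhibit metalloproteinases. Timp2 (1454677_at, 74.3-fold) had levels of 1.26, 0.24, 0.00 and 2.70 in OE + EpEX clones, 2.47, 1.09, -1.86 and -0.53 in KE + EpEX clones, -0.00, -0.63, -0.47 and -0.48 in OSKM clones and -0.79, -1.19 and -1.17 in mESCs. OE + EpEX clones lay above mESCs without overlap. On the probe set with the smallest p (1433662_s_at), the difference was 2.17 ± 0.73 and was not called (limma adjusted p = 0.0604). Timp3 (1449335_at, 63.9-fold) had 1.34, 0.39, -0.28 and -0.76 in KE + EpEX clones against -0.77, -1.40 and -0.93 in mESCs, a difference of 1.21 ± 0.44 that was not called (limma adjusted p = 0.0745).

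Among receptors and cell surface genes, Gpc6 (a glypican, 1428774_at) was 77.4-fold, Itgbl1 (an integrin beta-like protein) 52.1-fold and Itgb8 (integrin beta 8) 13.3-fold below MEFs. Itgb8 levels stayed between -0.10 and 0.41 in all pluripotent arrays. Itgbl1 had 1.37 in KE + EpEX clone 1 and -0.32 to 0.36 in the other 14. Lama4 reached 1.07 in the same clone and 0.60 in OE + EpEX clone 4, with the rest between -0.53 and 0.51. Has2 stayed between -0.33 and 0.33. Of the 30 limma tests of receptors and cell surface genes 0 gave a call and 5, or 16.7%, had an unadjusted p under 0.05, against 19.9% over all probe sets, and neither Lama4 nor Has2 reached either in its 6 tests.

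The clones of a group differed more from each other for these genes than for most probe sets in KE + EpEX and OE + EpEX. The median within-group SD of the matrix probe sets was 0.70 in KE + EpEX clones, 0.34 in OE + EpEX clones, 0.15 in OSKM clones and 0.15 in mESCs. Over all probe sets the medians were 0.17, 0.15, 0.12 and 0.14. KE + EpEX clone 1 was the highest of the 15 pluripotent arrays in 41 matrix probe sets, or 64.1%, where it was highest in 7.70% of all probe sets. It lay above all OSKM clones in 57 matrix probe sets, KE + EpEX clone 2 in 46 and OE + EpEX clone 4 in 48. The shares over all probe sets were 28.6%, 27.8% and 27.5%. KE + EpEX clone 3 lay below all OSKM clones in 41, or 64.1%, against 25.3% of all probe sets, and KE + EpEX clone 4 in 27, or 42.2%, against 32.1%. These clones were singled out after their values were seen, and no test is given for them.

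**Figure D3:**
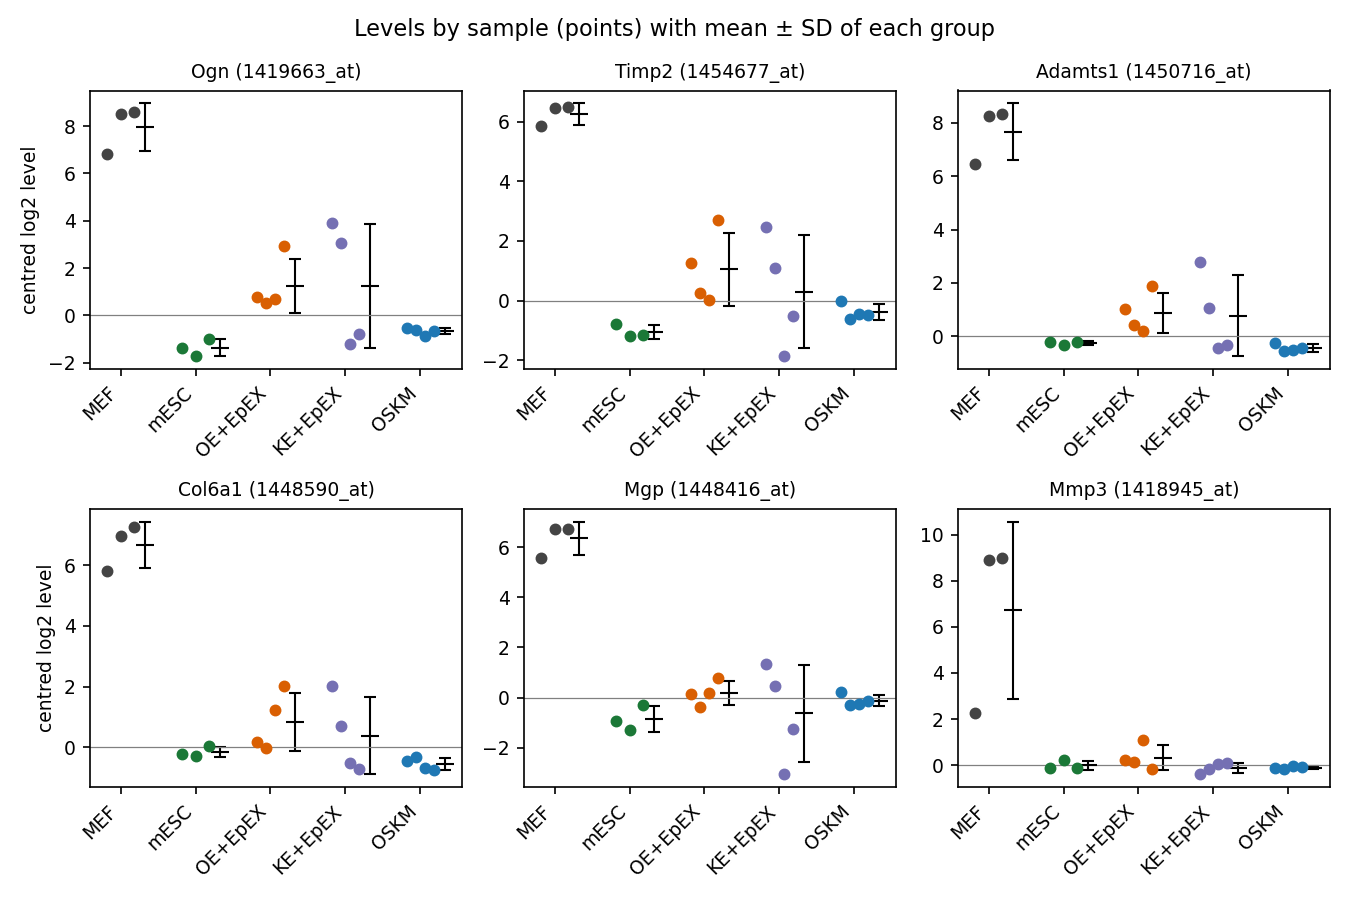
Centred log2 levels of 6 matrix genes in each sample (points), with the mean and SD of each group beside them. KE + EpEX clones 1 and 2 and OE + EpEX clone 4 stood above the OSKM clones for Ogn, Timp2, Adamts1, Col6a1 and Mgp, while Mmp3 stayed near 0 in these clones and was 2.28 in MEF 1 against 8.88 and 8.99 in the other MEF arrays.

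The roles were not equally high in these clones. In KE + EpEX clone 1 the median difference from the OSKM mean was 2.02 for small leucine-rich proteoglycans, 1.60 for collagens, 1.36 for protease inhibitors and 1.03 for elastic fibre genes, 0.88 for glycoproteins and matricellular genes, 0.64 for proteases and 0.45 for receptors and cell surface genes. OE + EpEX clone 4 had 1.24, 0.96, 1.11, 0.38, 0.84, 0.39 and 0.43 for these roles in the same order. In KE + EpEX clone 2 they were 0.92, 0.78, 0.56, 0.45, 0.67, 0.33 and -0.01. Single genes ranged from 4.59 for Ogn (1419663_at), 3.22 for Adamts1 and 2.87 for Timp2 to -0.03 for Fbln7 and -0.30 for Mmp3 in KE + EpEX clone 1. Across the 64 probe sets, Pearson's r between the profiles of clones was 0.891 for KE + EpEX clones 1 and 2, 0.884 for KE + EpEX clone 1 and OE + EpEX clone 4, and 0.877 for KE + EpEX clone 2 and OE + EpEX clone 4. These profiles share the OSKM mean as reference, and probe sets of 1 gene are not independent, so the values are a description.

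**Figure D4:**
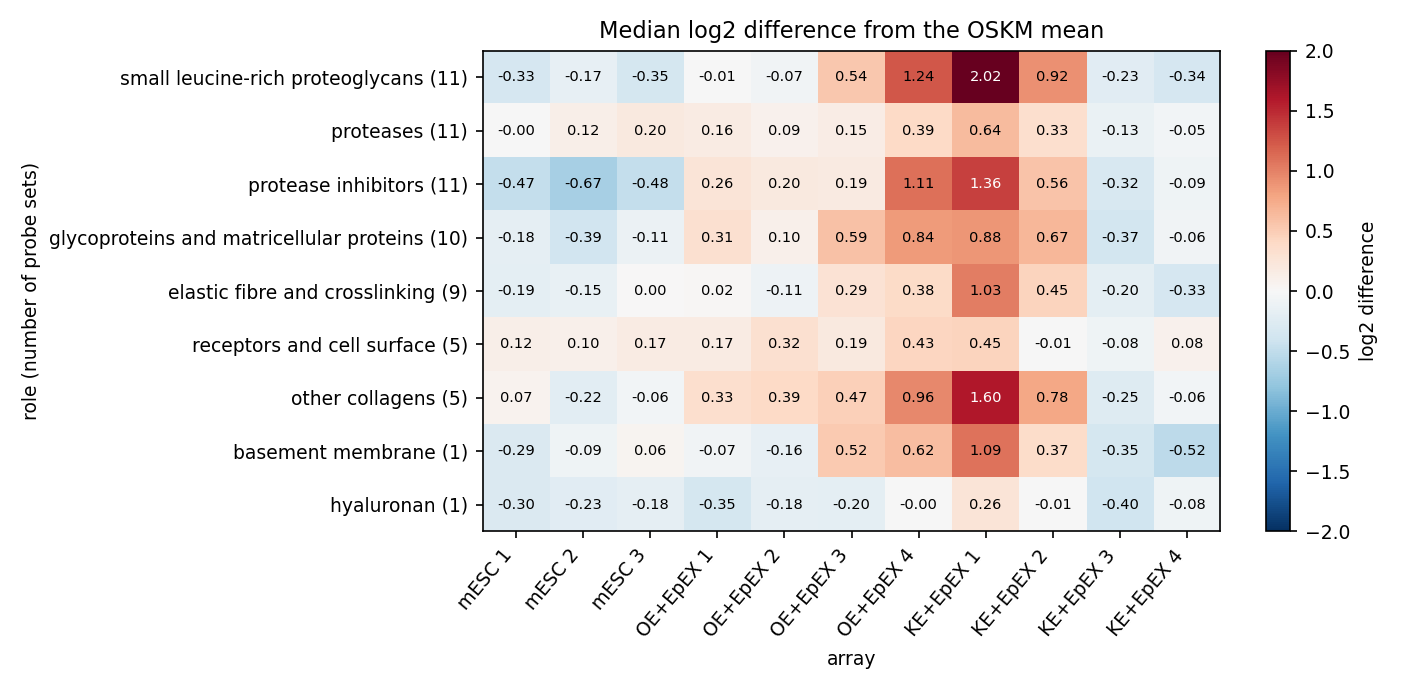
Median log2 difference from the OSKM mean for the probe sets of each role (rows, with their number) in each mESC, OE + EpEX and KE + EpEX array (columns). Small leucine-rich proteoglycans reached 2.02 in KE + EpEX clone 1 and 1.24 in OE + EpEX clone 4, and the highest role median in KE + EpEX clones 3 and 4 was 0.08.

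Fibroblast genes outside the matrix set were high in the same clones. Of the 12 fibroblast probe sets, 12 lay above all OSKM clones in KE + EpEX clone 1, with a median difference of 1.45 and a range from 0.39 to 3.19. In KE + EpEX clone 2 it was 11, with a median of 0.65, and in OE + EpEX clone 4 it was 11, with a median of 1.00. The other OE + EpEX clones had 9, 7 and 8, and KE + EpEX clones 3 and 4 had 1 and 2. Col3a1, a fibrillar collagen, was 3.19, 1.76 and 2.85 above the OSKM mean in the 3 clones named. The fibroblast probe sets come from the same lower list and were thus picked by the same difference. They read 9 genes, with Prrx1 and Snai2 read more than once. Of these probe sets 3 read the fibrillar collagens Col1a1, Col3a1 and Col5a2, which are matrix genes as well. Pluripotency markers had medians of 0.16, 0.12 and 0.18 in the same clones, within the range of -0.07 to 0.32 in the other iPSC clones outside OSKM. The iPSCs were derived on feeder cells, and the part of fibroblast RNA in the matrix values was not tested.

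Among MEFs the genes differed as well. MEF 1 was lower than the mean of MEF 2 and MEF 3 by over 2 log2 units in 18 probe sets and higher by over 1 in 3. Mmp3 had a level of 2.28 in MEF 1 and of 8.88 and 8.99 in the others, a 101-fold gap. Genes named here after their values were seen were Fbln7 (-6.37), Serpina3n (-5.86), Adamtsl3 (-4.96), Lum (-4.28) and Dcn (-3.22), as differences of MEF 1 from the other MEF arrays. Tnc, at 5.21 against 3.24 and 3.61, was higher in MEF 1, and Fbn2 (1422831_at) was too, at 5.53 against 4.59 and 4.80. Biglycan (Bgn), also named after its values were seen, had similar levels in the MEF arrays, 5.54, 5.38 and 5.56 on 1448323_a_at. Set against MEF 1 alone, 32 of the 64 probe sets would not have reached 10-fold below it, and set against MEF 2 and MEF 3, 2 would not. As a description, Pearson's r between the MEF 1 difference and the difference of KE + EpEX clone 1 from OSKM was 0.205 over the 64 probe sets.

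**Figure D5:**
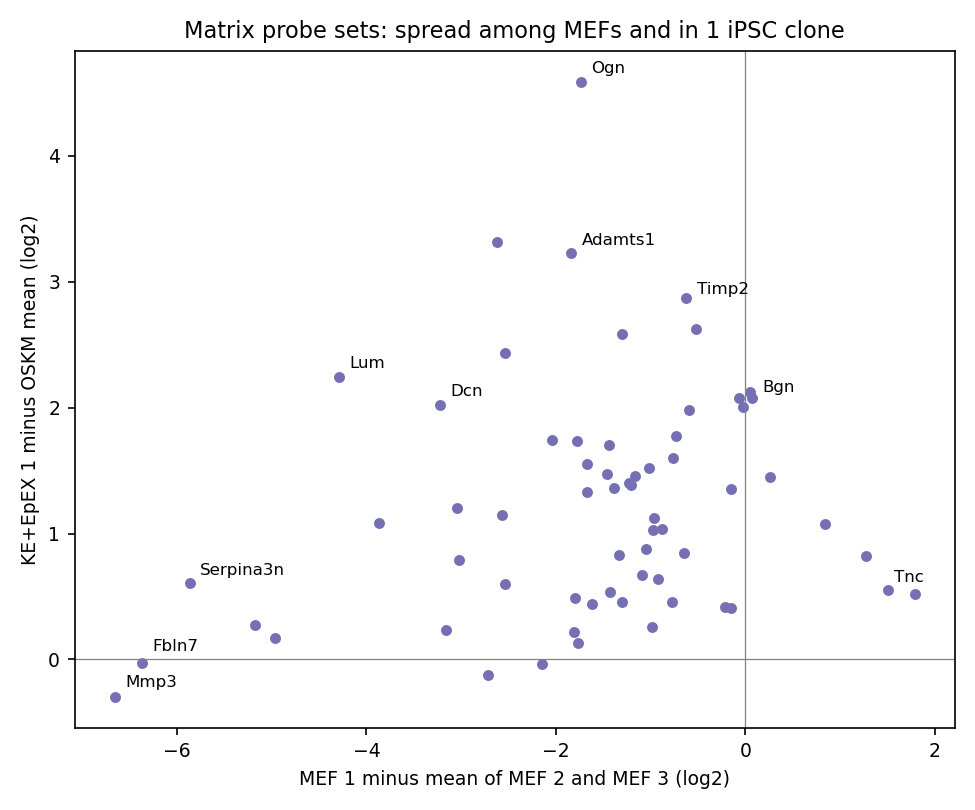
Log2 difference of MEF 1 from the mean of MEF 2 and MEF 3 (x axis) against that of KE + EpEX clone 1 from the OSKM mean (y axis) for each of the 64 matrix probe sets, with some genes named. Mmp3 and Fbln7 lay over 6 units down in MEF 1 and near 0 in the clone, while Ogn and Adamts1 were highest in the clone.

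Matrix genes that the family names did not take were read from a further list of fibrillar collagens, collagen-modifying enzymes, matrix-bound growth factor binders, syndecans, plasminogen activators and TGF-beta genes. In the lower list 34 probe sets of 23 of them had a symbol. Against mESCs, 2 of 34 were called higher in OE + EpEX, 3 higher and 1 lower in KE + EpEX, and 1 higher and 1 lower in OSKM. These were 5.88%, 11.8% and 5.88% of the 34, against 3.43%, 3.89% and 3.73% of all probe sets. Between iPSC groups 0 of 34 were called by limma, with 5, 2 and 0 at an unadjusted p under 0.05 for OE + EpEX against OSKM, KE + EpEX against OSKM and OE + EpEX against KE + EpEX. The shares were 14.7%, 5.88% and 0%, against 16.5%, 12.0% and 8.27% of all probe sets. Col5a2, a chain of the fibrillar collagen V, exceeded mESCs by 1.75 ± 0.45 in OE + EpEX (limma adjusted p = 0.0160). In KE + EpEX it did so by 1.49 ± 0.45 and in OSKM by 1.46 ± 0.45 (limma adjusted p = 0.0329 and 0.0356). Sdc2, a syndecan, exceeded mESCs by 1.08 ± 0.30 in OE + EpEX and 1.28 ± 0.30 in KE + EpEX on 1448545_at (limma adjusted p = 0.0258 and 0.00813). Igfbp4, an insulin-like growth factor binding protein, fell by 1.48 in KE + EpEX and by 1.25 in OSKM, with an SE of 0.39 each (limma adjusted p = 0.0157 and 0.0390). Its call was on 1 of its 3 probe sets (1423756_s_at), where mESC 1 and mESC 3 lay 1.92 and 1.82 above the OSKM mean and mESC 2 at 0.00. Without mESC 1 or mESC 3 neither call was made, with differences of -1.15 and -1.20 for KE + EpEX and -0.91 and -0.96 for OSKM, and the OSKM call was also lost without any 1 OSKM clone. The Col5a2 call in OSKM was lost when any 1 mESC or OSKM array was left out, and that in KE + EpEX when any 1 mESC array or KE + EpEX clone 1 or 2 was, with differences between 1.01 and 1.66. The call in OE + EpEX was lost without mESC 1 or mESC 2, at 1.65 and 1.67. The Sdc2 call in OE + EpEX was lost without mESC 2, mESC 3 or OE + EpEX clones 1 or 4, between 0.85 and 1.09. After quantile normalization, of these calls only that of Igfbp4 in KE + EpEX remained, at -1.13. As with Col6a3 these differences share the mESC arrays.

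The same family names picked 3 probe sets from the list of genes higher than in MEFs. Itga6, an integrin chain that binds laminin, was read by a pair of them, 1422444_at and 1422445_at, at 4.76 and 4.85 log2 units above MEFs. Serpina3m was 4.70 above. Itga6 also set MEF 1 apart, at -2.20 on 1422444_at against -5.99 and -5.68 in MEF 2 and MEF 3. Limma called 0 of their 18 tests among pluripotent groups. Of the 18, 8 had an unadjusted p under 0.05, a larger share than the 19.9% over all tests. These tests read only Itga6 and Serpina3m and share arrays.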

How the data were processed

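RNA of each of the 18 samples was measured on 1 Affymetrix mouse array. The authors deposited log2 levels made with GeneSpring GX, centred so that the median of every probe set over the 18 arrays is 0. MAS5 and RMA are named in the submitters' processing notes without a role, and how arrays were normalized to each other is not given in the sources used here. With such centred levels the signal over background is unknown, genes cannot be ranked by level, and the number of arrays limits the precision. The authors also deposited the lists of probe sets at least 10-fold lower (471) or higher (477) than the MEF mean in each of the 15 other arrays. Their linear fold columns were not used.

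The 64 control probe sets were left out, and 45037 were tested. Array medians lay between -0.03 and 0.07, and no arrays held identical values. Group differences were fitted with limma 3.58.1 (lmFit, eBayes) in R 4.3.3 on the 15 pluripotent arrays with group as the only term. The p-values are two-sided and adjusted by Benjamini-Hochberg over all probe sets within each of the 6 comparisons, and calls required both an adjusted p under 0.05 and a 2-fold difference, that is, 1 on the log2 scale. The study's methods use an unpaired t-test, which was an alternative. The fit was tested on simulated data. Values after ± are SEs of the fitted log2 difference, and folds are powers of 2 of differences between mean log2 levels.

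Genes were named by a rule: the 3 with the largest difference from MEFs in each of 9 roles, every gene called, and genes with the smallest p up to 10. Others are marked in the text as chosen after their values were seen. The members and lists were chosen with earlier results of these data known. Promoters came from RefSeq (GRCm38.p6). Tables and figures were made with Python 3.11.15, pandas 2.3.3 and matplotlib 3.10.9. Folds without MEF 1, and the alternatives for Col5a2, Sdc2 and Igfbp4, were chosen after seeing the data.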

Additional observations from a re-analysis of the deposited data

Results flagged for a closer look

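Dixon's test was run on 96 groups of 4 clones, 93 from the 31 named probe sets and 3 from the matrix median. In 3 there was a clone far from the other clones of its group, where chance at 1 in 20 gives 4.8. Ogn (1419663_at) was at 2.96 in OE + EpEX clone 4, with the other clones of that group at 0.53 to 0.79. Itgb8 (1436223_at) was at 0.246 in OSKM clone 3, where the others lay between -0.05 and -0.03. Fmod (1415939_at) was at 0.186 in KE + EpEX clone 3, where the others lay between -0.01 and 0.01.

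The difference of Serpinf1 (1416168_at) from mESCs was larger in OE + EpEX than in OSKM iPSCs, by 1.34 on the log2 scale (limma adjusted p = 0.0325), with all 4 OE + EpEX clones above all 4 OSKM clones.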

How the results depend on the processing

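Numbers of matrix probe sets called are given for the comparisons in the order of OE + EpEX, KE + EpEX and OSKM against mESCs, then OE + EpEX and KE + EpEX against OSKM, then OE + EpEX against KE + EpEX, where the values reported above were 5, 2, 3, 1, 0 and 0. Quantile normalization gave 2, 0, 2, 4, 2 and 0. It was applied to centred levels and makes their spread equal between arrays by construction. Whether calls lost or gained after it reflect this was not tested. A fit of only the 2 groups compared gave 13, 1, 5, 4, 0 and 0, and a fit with all 18 arrays 5, 2, 1, 0, 0 and 0. The methods' t-test gave 21, 4, 32, 20, 1 and 3 without adjustment and 6, 0, 18, 2, 0 and 0 with it. No fold limit and a limit of 1.5-fold both gave 5, 4, 4, 2, 0 and 0. The more variable probe sets, among which 54 of the 64 remained, gave 10, 6, 4, 1, 0 and 0. Leaving out 1 array at a time gave 4 to 7, 1 to 12, 1 to 2, 0 to 1, 0 to 3 and 0 to 0. Over all 45037 probe sets quantile normalization gave 545, 643, 1005, 384, 237 and 0 calls, against 1547, 1754, 1678, 44, 1 and 0.

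The median differences of the matrix probe sets from the MEF mean were -5.85 for mESCs, -5.48 for OSKM, -4.96 for OE + EpEX and -5.26 for KE + EpEX. Quantile normalization, which gives the MEF arrays the same distribution as the others by construction, made them -2.26, -2.12, -1.54 and -1.68. With 1 probe set per gene the first 3 were -6.03, -5.84 and -5.21. Leaving out 1 array at a time they ranged from -6.25 to -5.54, -5.85 to -5.39, -5.50 to -4.75 and -5.66 to -4.92, with the lowest values without MEF 1. For single genes of the matrix set, 239 alternative values kept direction and side of the threshold, 36 lost the call, 14 gained one and 0 reversed. Postn in OSKM against mESCs lost its call in 10 of its alternatives and kept it in 8. Serpinf1 (1416168_at) in OE + EpEX against OSKM lost its call in 9 and kept it in 10. Col6a3 against mESCs fell below 2-fold after quantile normalization in KE + EpEX (0.72) and OSKM (0.61). The cause was not tested.

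The replicate numbers did not pair the samples: same-numbered arrays had correlations of their deviations from -0.36 to 0.25 over 21 pairs, 2 of which were over 0.1, and 4 of 15 arrays correlated best with their own number. With the number as a replicate block, 5, 2, 4, 0, 0 and 0 probe sets were called.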
